A study of Mus musculus with 6 samples.

Results

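The BCL2 family decides whether the outer mitochondrial membrane stays sealed or is opened during apoptosis, and its transcripts were measured in Neuro2a cells, a mouse neuroblastoma line, grown with or without D-serine. The genes were taken by symbol from the count table: 10 were sought and all 10 were found among 24391 listed genes. They comprise 3 anti-apoptotic genes (Bcl2, Bcl2l1, Mcl1), 2 effectors (Bax, Bak1) and 5 BH3-only genes (Bcl2l11, Bbc3, Pmaip1, Bid, Bad). Of these, 9 were expressed highly enough to be tested, together with 13366 genes in all, and Pmaip1 was not.

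Poly(A) RNA was sequenced from 3 control libraries (vehicle) and 3 D-serine libraries (5 mM). Both groups had been moved from D-MEM with 10% serum to a medium that the labels write as D-MEM(-SG), also with 10% serum, and both were harvested 18 h later. The only stated difference between them is therefore D-serine, the mirror-image form of L-serine. The labels number the replicates but do not say that they came from separate cultures, so p-values measure only the spread between these libraries. All libraries come from 1 cell line, and cell death itself was not measured.

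In this family, anti-apoptotic proteins hold the effectors BAX and BAK in check, and the effectors form pores in the outer mitochondrial membrane when they are released. BH3-only proteins sense stress and act by binding the anti-apoptotic proteins or the effectors directly. Once the membrane opens, cytochrome c leaves the mitochondria and assembles with APAF1 into the apoptosome, which starts the caspase cascade. In neurons and neuroblastoma cells, loss of trophic support is known to engage this pathway.

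Libraries held 32518483 to 40024265 counts, and tested members had between 502 and 5393 counts in a library. Expression is given in CPM, the usual depth-normalised count, with TMM scaling. D-serine replicate 1 stood apart from the other libraries in its relation to gene length: the slope of its log2 CPM, as a deviation from the mean of all libraries, on log2 length was -0.0717, against -0.0040 to 0.0356 in the other 5. Of the sympathoadrenal and neuronal markers, 13 of 16 were tested, and their summed level was 1853 to 1959 CPM in control and 1970 to 2086 CPM with D-serine. Hand2, a transcription factor of sympathetic neurons, stood at 242 ± 5.23 in control against 256 ± 3.69 with D-serine (CPM ± SD, n = 3 each, edgeR adjusted p = 0.192). The neurofilament genes Nefl and Nefm had at most 6 counts in any library. Tubb3, a neuronal tubulin, was the only marker that passed the test (log2 fold change 0.25, SE 0.052, edgeR adjusted p = 0.0148), which is 1 of the 13 tested against 9.74% of all genes. It lost the call without control replicate 1, without control replicate 2 and with the replicate number as a block. Markers of other cell types were low. The sum of 6 fibroblast markers was 5.70 to 6.09 CPM in control and 4.62 to 6.90 CPM with D-serine, with Lum and Thy1 at 0. The sum of 5 glial markers, nearly all of it Mbp, was 14.7 to 16.2 and 14.5 to 15.6 CPM. That of 4 leukocyte markers was 0.940 to 2.08 and 0.968 to 1.43 CPM, with Cd3e at 0. The part of the marker differences in the results below was not tested.

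None of the 9 tested members passed an adjusted p of 0.05 in edgeR's quasi-likelihood test (0 of 9), where 9.74% of all tested genes did (4.84% higher and 4.9% lower). DESeq2 and limma-voom also called 0 of 9, against 12.3% and 9.43% of all genes. At an unadjusted p under 0.05 there were 3 members by each of the 3 tools, Bcl2l1, Mcl1 and Bcl2l11, against 28.2% of all genes by edgeR, 25.9% by DESeq2 and 28.3% by limma-voom. The same 3 members were those whose libraries did not overlap between the groups, which is 33.3% of the 9 members and near the 32.9% of all tested genes. The estimate was above 0 in 5 members and below 0 in 4. The median log2 fold change of the members was 0.00089, and that of all tested genes was 0.0053. The median size of the difference, regardless of sign, was 0.064 in the members and 0.12 in all tested genes. These medians are not matched for expression. Tested members had at least 502 counts in a library, whereas all tested genes include some with far fewer counts and wider standard errors. In bulk RNA, a change in the number of cells that carry a transcript and a change of its amount per cell cannot be told apart.

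**Figure D1:**
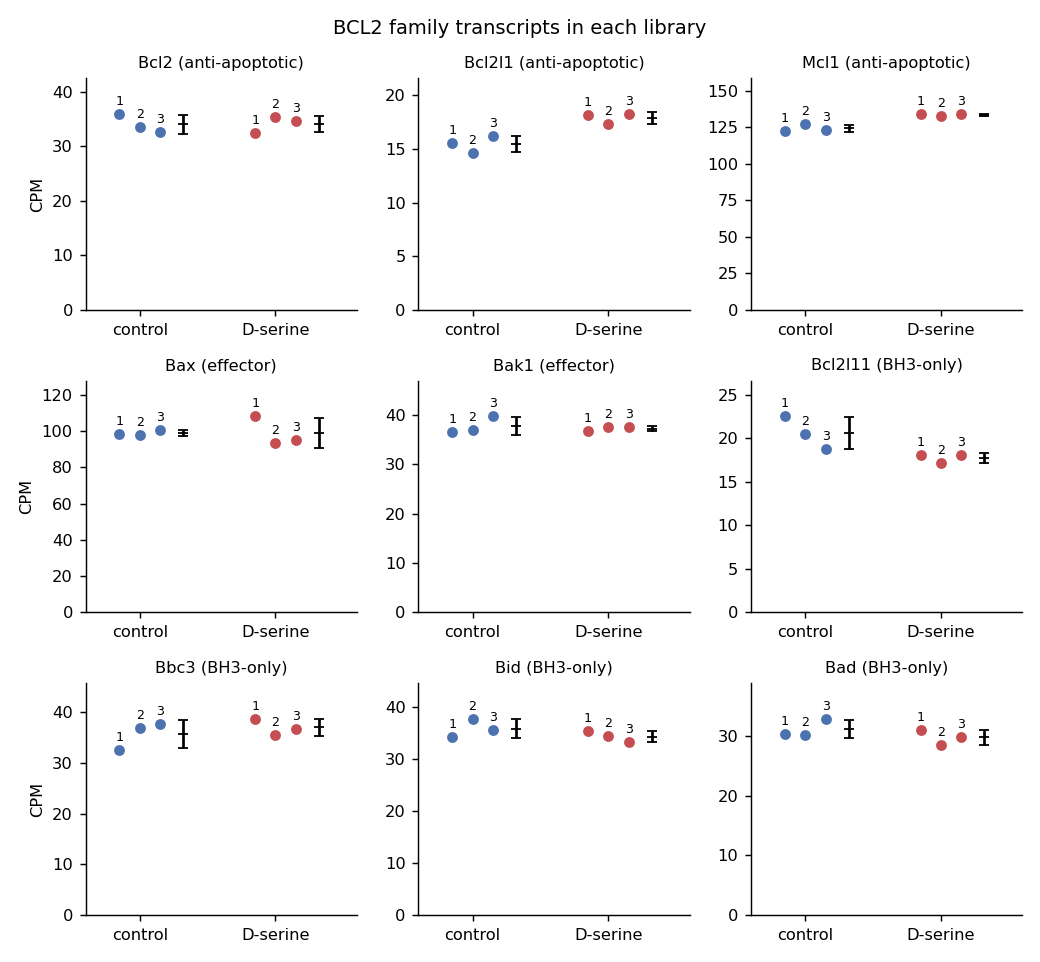
CPM of each tested member (vertical axis, from 0) in the 3 control and 3 D-serine libraries; points are libraries with their replicate number, and the bar beside them is the mean ± SD (n = 3). Bcl2l1 and Mcl1 are higher in all 3 D-serine libraries than in any control library, Bcl2l11 is lower in all 3, and the groups overlap in the other 6 genes.

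**Figure D2:**
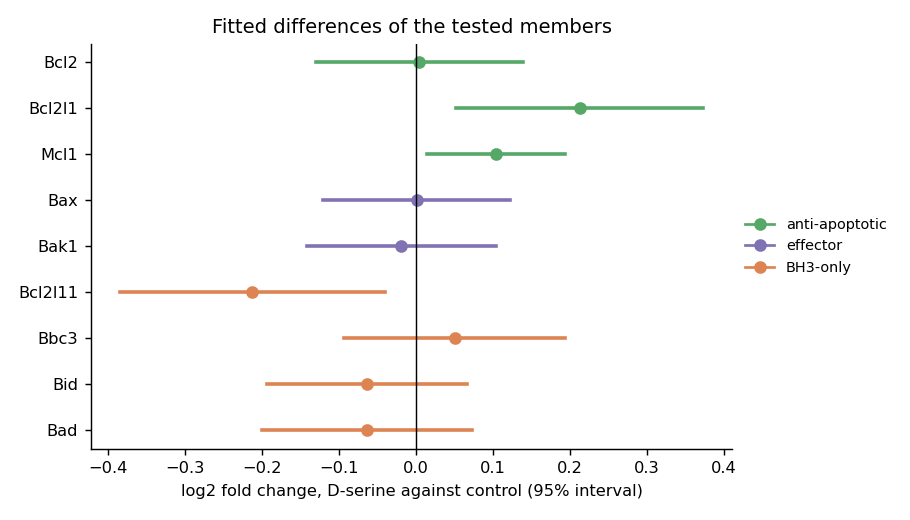
Log2 fold change of D-serine against control (horizontal axis) with its 95% interval for the 9 tested members, coloured by role. The intervals of Bcl2l1, Mcl1 and Bcl2l11 lie to one side of 0 before correction for multiple testing, and those of the other 6 genes span 0.

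The intervals limit how large a difference these libraries allow. The lowest bound over the 9 members was a log2 fold change of -0.38 (a fold of 0.766, for Bcl2l11) and the highest was 0.37 (a fold of 1.30, for Bcl2l1). No 95% interval, unadjusted for multiple testing, therefore reached a 2-fold change in either direction. The genes called over the whole table had a median difference of 0.26 regardless of sign, and the smallest called difference was 0.13.

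Among the anti-apoptotic genes, Mcl1 encodes a short-lived protein that binds BIM and BAK. Its gene lies on chromosome 3 at 95462643 to 95467101, plus strand, in the deposited coordinates. Mcl1 stood at 123, 127 and 123 CPM in control replicates 1 to 3 and at 134, 133 and 134 CPM in D-serine replicates 1 to 3. All D-serine libraries were above all control libraries, and the D-serine libraries differed from each other by little, with a coefficient of variation of 0.519%. The means were 124 ± 2.47 and 134 ± 0.694 CPM (SD, n = 3 each). The fitted difference was 7.44% with a 95% interval of 0.987% to 14.3% (log2 fold change 0.10, SE 0.041), and the edgeR adjusted p was 0.124. With each library's trend on gene length removed, Mcl1 was past the threshold (log2 fold change 0.11, edgeR adjusted p = 0.0408), where 15.3% of all tested genes were. It passed in 1 of 18 alternatives.

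Bcl2l1, which encodes BCL-XL, the anti-apoptotic protein that neurons depend on as they mature, lies on chromosome 2 at 152584468 to 152657464, minus strand. It was measured at 15.6, 14.7 and 16.2 CPM in the control libraries and at 18.2, 17.3 and 18.3 CPM with D-serine. The lowest D-serine library was above the highest control library. The means were 15.5 ± 0.758 and 17.9 ± 0.538 CPM (SD, n = 3 each), a fitted difference of 15.9% with an interval of 3.67% to 29.5% (log2 fold change 0.21, SE 0.074). The edgeR adjusted p was 0.0851, the smallest of the family, and Bcl2l1 ranked 2094 by p among the tested genes. It passed in 0 of 18 alternatives, with adjusted p-values between 0.0552 and 0.263.

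Bcl2, the founding member, whose protein sits in the membranes of mitochondria and endoplasmic reticulum, lies on chromosome 1 at 108434755 to 108610867, minus strand. It stood at 36.0, 33.6 and 32.6 CPM in control and at 32.5, 35.3 and 34.6 CPM with D-serine. The groups overlapped throughout, and the lowest value of all was that of D-serine replicate 1. The means were 34.0 ± 1.75 and 34.1 ± 1.498 CPM (SD, n = 3 each). The difference was 0.318% with an interval of -8.60% to 10.1% (edgeR adjusted p = 0.975). Bcl2 has the longest exons of the family, 7739 bases. With the length trend removed its log2 fold change was 0.11 (edgeR adjusted p = 0.182).

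Neither effector passed the test, and in both the groups overlapped. Bax, whose protein moves from the cytosol to mitochondria when activated, lies on chromosome 7 at 52717065 to 52722268, minus strand. It stood at 98.2, 98.0 and 101 CPM in control and at 108, 93.6 and 95.3 CPM with D-serine. D-serine replicate 1 was the highest of all libraries and the other D-serine libraries were the lowest, so the control libraries lay between them. The means were 99.0 ± 1.56 and 99.1 ± 8.04 CPM (SD, n = 3 each), with a difference of 0.0618% and an interval of -8.04% to 8.88% (edgeR adjusted p = 0.994).

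Bax has the shortest exons of the family, 869 bases, and its value turned on the library with the deviating length slope. Without D-serine replicate 1 the log2 fold change was -0.068 (edgeR adjusted p = 0.324), and with the length trend removed it was -0.090 (edgeR adjusted p = 0.131). With both changes, a setting chosen after seeing the data, it was -0.12 and past the threshold (edgeR adjusted p = 0.0473), where 13.8% of all genes tested in that setting were. Its direction is therefore not settled by these libraries.

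Bak1, whose protein is resident on mitochondria, lies on chromosome 17 at 27156757 to 27165571, minus strand. It stood at 36.5, 37.0 and 39.8 CPM in control and at 36.8, 37.5 and 37.6 CPM with D-serine. The D-serine libraries lay within the range of the control libraries. The difference was -1.32% with an interval of -9.36% to 7.43% (log2 fold change -0.019, SE 0.057, edgeR adjusted p = 0.865). Its sign changed under upper quartile scaling (0.010) and library totals (0.010).

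Of the BH3-only genes, Bcl2l11 had the largest difference. It encodes BIM, which binds all the anti-apoptotic proteins and is known for its part in neuronal death after withdrawal of trophic factors, and it lies on chromosome 2 at 127951774 to 127988283, plus strand. Bcl2l11 stood at 22.6, 20.6 and 18.8 CPM in control and at 18.1, 17.1 and 18.1 CPM with D-serine. The highest D-serine library was below the lowest control library, by a small margin, and the control libraries were spread more widely than those of any other tested member, with a coefficient of variation of 9.16%. The means were 20.6 ± 1.89 and 17.8 ± 0.564 CPM (SD, n = 3 each). The difference was -13.7% with an interval of -23.4% to -2.79% (log2 fold change -0.21, SE 0.080, edgeR adjusted p = 0.104).

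The size of the Bcl2l11 difference changed with removal of the length trend and with which control libraries were included. Its exons are long, 7137 bases, and with the length trend removed the log2 fold change was -0.11 (edgeR adjusted p = 0.367). Without D-serine replicate 1, the library with the deviating length slope, it was -0.22 (edgeR adjusted p = 0.0948). With both changes, a setting chosen after seeing the data, it was -0.17 (edgeR adjusted p = 0.178). A part of gene length in the difference was not tested. Without control replicate 1 it was -0.14 (edgeR adjusted p = 0.345), and without control replicate 3 it was -0.28 (edgeR adjusted p = 0.0814). It was negative and short of the threshold in all 18 alternatives, with adjusted p-values from 0.0814 to 0.367.

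Bbc3, which encodes PUMA, a BH3-only protein induced by p53 and by forkhead factors, lies on chromosome 7 at 16894932 to 16903683, plus strand. It stood at 32.6, 36.9 and 37.6 CPM in control and at 38.7, 35.5 and 36.7 CPM with D-serine. The lowest and highest values were those of control replicate 1 and D-serine replicate 1, and in the other 4 libraries the D-serine values lay just below the control values. The difference was 3.57% with an interval of -6.23% to 14.4% (log2 fold change 0.051, SE 0.066, edgeR adjusted p = 0.657). Without control replicate 1 it was -0.0084 on the log2 scale.

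The sequence before the start site is shown for 3 members, because they represent the patterns found: Mcl1 as a member with higher values in all D-serine libraries, Bcl2l11 as the member with lower values, and Bbc3 as a BH3-only gene that, like Bcl2l11, carries a forkhead element here but whose groups overlapped. The sequences are from RefSeq (GRCm38.p6), 250 bases upstream of an annotated start, plus strand, and capitals mark the GC box (GGGCGG or its reverse complement) in Mcl1 and the forkhead element (GTAAACA or its reverse complement) in Bcl2l11 and Bbc3. Other matches are left in lower case. The Bcl2l11 window also holds 3 GC boxes and 1 CCAAT box, and the Bbc3 window also holds 1 GC box. The windows are chr3:95658471-95658720 for Mcl1, chr2:128125788-128126037 for the first start of Bcl2l11 and chr7:16310011-16310260 for the second of the 3 starts of Bbc3. In GENCODE M21, those of Mcl1 and Bcl2l11 lie outside any gene and that of Bbc3 lies inside Bbc3 without an exonic base. In RefSeq, however, the gene Mcl1 spans 95656944 to 95663179, so its window lies inside that span. The windows and that span are in GRCm38.p6 positions. Deposited gene positions, given above, do not equal the RefSeq start for any member, so the windows cannot be placed against them.
Mcl1: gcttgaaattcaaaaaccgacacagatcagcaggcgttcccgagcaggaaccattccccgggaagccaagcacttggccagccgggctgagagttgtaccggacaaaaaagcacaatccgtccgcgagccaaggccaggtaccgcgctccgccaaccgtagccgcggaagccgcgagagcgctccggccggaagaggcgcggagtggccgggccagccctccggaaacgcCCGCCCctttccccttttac
Bcl2l11: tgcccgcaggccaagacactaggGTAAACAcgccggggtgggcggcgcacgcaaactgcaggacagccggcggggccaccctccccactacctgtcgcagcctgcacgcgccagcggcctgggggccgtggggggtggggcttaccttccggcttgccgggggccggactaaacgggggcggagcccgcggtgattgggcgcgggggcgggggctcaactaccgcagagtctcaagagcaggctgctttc
Bbc3: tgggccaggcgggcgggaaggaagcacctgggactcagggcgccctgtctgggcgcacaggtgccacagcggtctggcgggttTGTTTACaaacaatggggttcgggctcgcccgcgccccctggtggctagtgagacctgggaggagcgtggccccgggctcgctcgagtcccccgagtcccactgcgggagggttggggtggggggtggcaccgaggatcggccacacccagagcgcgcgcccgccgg

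RefSeq listed 15 such windows for 9 members, and 7 motifs were searched on both strands in the 250 bases. The forkhead element was found in 2 of the 15 windows, those shown, and in 3.17% of all 32851 windows of the table. The GC box was found in 10 of 15 and in 32.7% of all windows, and the CCAAT box (CCAAT) in 4 of 15 and 33.8%. The E-box (CACGTG) was found in 2 windows, those of Bax and of the last start of Bbc3, and in 6.02% of all. The cyclic AMP response element (TGACGTCA), the C/EBP-ATF composite element (TGATGNAA) and the AP-1 element (TGANTCA) were found in 0 of 15 windows, and in 1.55%, 3.45% and 6.75% of all windows. None of the 7 was found in the 3 windows of Bcl2l1 or the 1 window of Bak1. Windows of 1 gene can overlap, a match is a description of the letters only, and which start Neuro2a cells use was not analysed here.

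Bid links death receptors to mitochondria, because caspase 8 cuts its protein into an active fragment. The gene lies on chromosome 6 at 120843137 to 120866838, minus strand. It stood at 34.1, 37.7 and 35.5 CPM in control and at 35.3, 34.3 and 33.2 CPM with D-serine. The groups overlapped. The difference was -4.32% with an interval of -12.5% to 4.68% (log2 fold change -0.064, SE 0.060, edgeR adjusted p = 0.523).

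Bad, whose protein is held inactive by phosphorylation under growth factor signalling, lies on chromosome 19 at 7016351 to 7026395, plus strand. It stood at 30.3, 30.2 and 32.9 CPM in control and at 31.0, 28.6 and 29.9 CPM with D-serine. The groups overlapped here too. The difference was -4.32% with an interval of -13.0% to 5.20% (log2 fold change -0.064, SE 0.063, edgeR adjusted p = 0.544). Bad shares 517 exonic bases, 34.0% of its exonic length, with Gpr137 on the opposite strand, whose means were 38.0 in control against 42.1 with D-serine (CPM). The strand setting of the count is not given in the sources used here, so reads of Bad and Gpr137 may not have been told apart and the value of Bad is uncertain. None of the other 9 members shares exonic bases with another listed gene.

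Pmaip1, which encodes NOXA, a BH3-only partner of MCL1 induced by p53 and by ATF4, had 0 counts in all 6 libraries. The gene lies on chromosome 18 at 66618258 to 66625212, plus strand. A count of 0 allows up to 3 counts, or between 0.0750 and 0.0923 CPM depending on the library, for counting error only. Whether the cells lack the transcript or the count misses it cannot be told apart from this table. The lowest tested member, Bcl2l1 in control replicate 2, stood at 14.7 CPM. No difference between the groups was detectable for Pmaip1 at this depth. The p53 transcript itself, Trp53, stood at 177 ± 7.26 in control against 173 ± 3.50 with D-serine, and Atf4 at 1041 ± 16.7 against 1169 ± 90.6 (CPM ± SD, n = 3 each).

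Levels of different members were compared per exonic length, as CPM per kb over all 6 libraries. Bax was the most abundant, at 114 CPM per kb (range 108 to 125), above Mcl1 at 37.0 (35.2 to 38.5) in 6 of 6 libraries. Next came Bad at 20.1, Bak1 at 18.7, Bid at 18.5 and Bbc3 at 18.4 CPM per kb. Their ranges overlapped from each to the next, and Bid was above Bbc3 in only 3 of 6 libraries. Bcl2l1 at 5.22 and Bcl2 at 4.41 CPM per kb also had overlapping ranges, although Bcl2l1 was the higher in 6 of 6 libraries. Bcl2l11 followed at 2.69 CPM per kb (2.40 to 3.16), below Bcl2 in every library, and Pmaip1 was at 0. This ordering rests on the deposited exonic lengths, which count every annotated exon whether or not the cells use it.

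**Figure D3:**
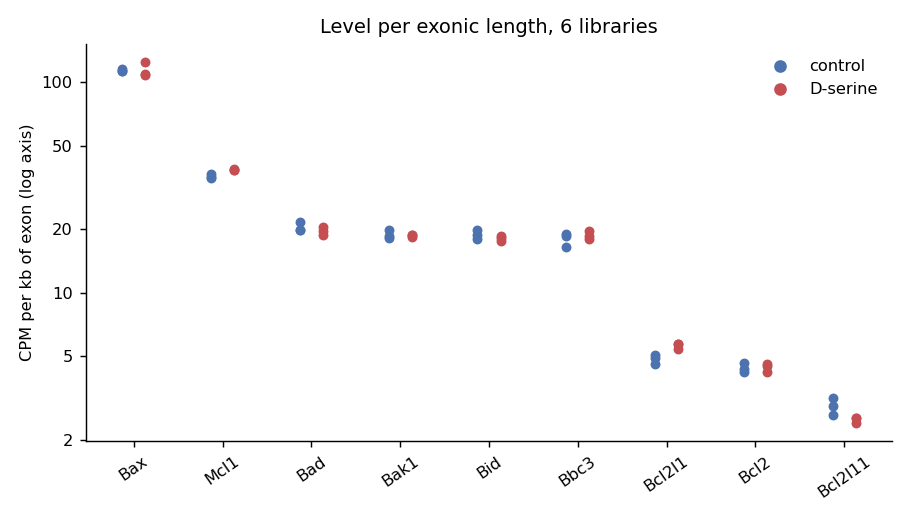
CPM per kb of exon (log axis) of the 9 tested members, ordered by their mean over 6 libraries, with 1 point per library (control left, D-serine right of each name). Bax stands at 108 to 125, Mcl1 at 35.2 to 38.5, Bad, Bak1, Bid and Bbc3 at 16.5 to 21.7, and Bcl2l1, Bcl2 and Bcl2l11 between 2.40 and 5.73; Pmaip1, at 0, cannot be drawn on a log axis.

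By role, the effectors made up 55.8% ± 0.561 of the family's summed level per length in control and 55.2% ± 1.19 with D-serine (SD, n = 3 each), most of it Bax. The anti-apoptotic genes made up 18.9% ± 0.405 and 20.2% ± 0.890, and the BH3-only genes 25.3% ± 0.594 and 24.6% ± 0.302. The summed anti-apoptotic level was 44.7, 45.4 and 44.7 CPM per kb in control and 48.4, 48.1 and 48.6 CPM per kb with D-serine, without overlap and most of it Mcl1. The effector sum (127 to 143 CPM per kb over 6 libraries) and the BH3-only sum (57.3 to 62.1) overlapped between the groups. These sums follow from the members' own values and were not tested.

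The ratio of Bax to Bcl2 per length, often used as a summary of this family, was 24.3, 26.0 and 27.6 in control and 29.7, 23.6 and 24.5 with D-serine, with overlap. The ratio of Bcl2l1 to Bcl2l11 was 1.54, 1.59 and 1.92 in control and 2.24, 2.26 and 2.25 with D-serine. The ratio of Mcl1 to Bcl2l11 was 11.1, 12.7 and 13.5 in control and 15.2, 15.9 and 15.1 with D-serine. Both of the latter ratios were higher in every D-serine library than in any control library. This separation adds nothing to the members' own values: Bcl2l1 and Mcl1 were higher and Bcl2l11 lower in every D-serine library, which fixes it. The 2 ratios combine members chosen after their values were seen, and no test was made of them.

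No other gene of the family passed edgeR's test either. Of 15 other genes of BCL2 structure or name, 8 were tested and 0 passed in edgeR, against 9.74% of all genes. An unadjusted p under 0.05 in edgeR was found in 2 of the 8, against 28.2% of all genes. DESeq2 called 1 of the 8, Bcl2l12, against 12.3% of all genes, and limma-voom called 0, against 9.43%. The median log2 fold change was 0.059, with 6 estimates above 0 and 2 below. Bok, an effector-like gene, stood at 58.7 ± 0.941 in control against 59.98 ± 4.58 with D-serine, and Bcl2l2, which encodes the anti-apoptotic BCL-W, at 47.7 ± 2.21 against 50.7 ± 2.03 (CPM ± SD, n = 3 each). The estimate with the largest size, named after its value was seen, was that of Bcl2l12, with 4.55 ± 0.433 in control against 3.19 ± 0.474 with D-serine (CPM ± SD, n = 3 each). The difference was -0.51 on the log2 scale (SE 0.16, edgeR adjusted p = 0.0591). Bcl2l12 shares 179 exonic bases with Gm15545 on the opposite strand, so its value is uncertain. Bcl2a1a, Bcl2a1b and Bcl2a1d, near-identical copies whose reads a counter may be unable to place, had 0 counts in all libraries. The BH3-only genes Bik and Hrk had at most 6 and 12 counts in a library.

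Downstream of the mitochondria, 3 of 19 tested genes of the list on apoptosome, caspases and their inhibitors passed the test, 2 higher and 1 lower (15.8%, against 9.74% of all genes). Cycs, which encodes the cytochrome c released by BAX and BAK, rose by 0.14 on the log2 scale (SE 0.042, edgeR adjusted p = 0.0466), with 318 ± 4.12 and 352 ± 12.7 CPM as the group means (SD, n = 3 each). Htra2, a mitochondrial protease that antagonises caspase inhibitors once released, rose by 0.23 (SE 0.057, edgeR adjusted p = 0.0262), with means of 35.2 ± 1.68 and 41.3 ± 0.645 CPM. Apaf1, the scaffold of the apoptosome, fell by 0.21 (SE 0.061, edgeR adjusted p = 0.0468), with means of 60.1 ± 0.607 and 52.0 ± 4.34 CPM. DESeq2 and limma-voom called the same 3 genes. Cycs and Htra2 each lost the call when any 1 of control replicates 1, 2 and 3 or D-serine replicate 3 was left out (adjusted p up to 0.185 and 0.106 over all alternatives). The replicate block also ended both calls, DESeq2 size factors in edgeR ended that of Cycs, and the length trend removed without centring ended that of Htra2. Apaf1 lost it in 11 of 18 alternatives, among them removal of the length trend and omission of any 1 library except D-serine replicate 2 (adjusted p up to 0.187). Htra2 shares 533 exonic bases with Loxl3 and 51 with Aup1, both on the opposite strand, and its value is uncertain for that reason.

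No caspase passed by any of the 3 tools. Casp9, the initiator that APAF1 activates, stood at 35.2 ± 2.37 in control against 35.7 ± 1.58 with D-serine (CPM ± SD, n = 3 each). Casp8, the initiator at death receptors, had an estimate of 0.45 (SE 0.16, edgeR adjusted p = 0.0813) at a low level, 3.15 ± 0.343 and 4.31 ± 0.453 CPM (SD, n = 3 each). The median log2 fold change over this list was 0.012.

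Of 7 genes for death receptors and their adaptors, 5 were tested and 2 passed, 1 in each direction, by edgeR, DESeq2 and limma-voom alike, against 9.74%, 12.3% and 9.43% of all genes (median log2 fold change -0.080). Tradd, an adaptor of the TNF receptor, rose by 0.40 on the log2 scale (SE 0.10, edgeR adjusted p = 0.0298), with 8.08 ± 0.651 and 10.6 ± 0.691 CPM as the group means (SD, n = 3 each). Ripk1, the kinase that the same receptor recruits, fell by 0.24 (SE 0.059, edgeR adjusted p = 0.0266), with means of 54.8 ± 2.92 and 46.4 ± 2.46 CPM. Ripk1 lost the call without control replicate 1, control replicate 2 or D-serine replicate 3, and Tradd lost it when any 1 library except D-serine replicate 2 was left out. The replicate block also ended both calls. Removal of the length trend without D-serine replicate 1 ended that of Tradd. The highest adjusted p-values of Ripk1 and Tradd over the alternatives were 0.114 and 0.129. The receptors Fas and Tnfrsf10b were too low to be tested, with at most 6 and 22 counts in a library, whereas Tnfrsf1a stood at 97.1 ± 3.25 and 98.3 ± 0.226 CPM.

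**Figure D4:**
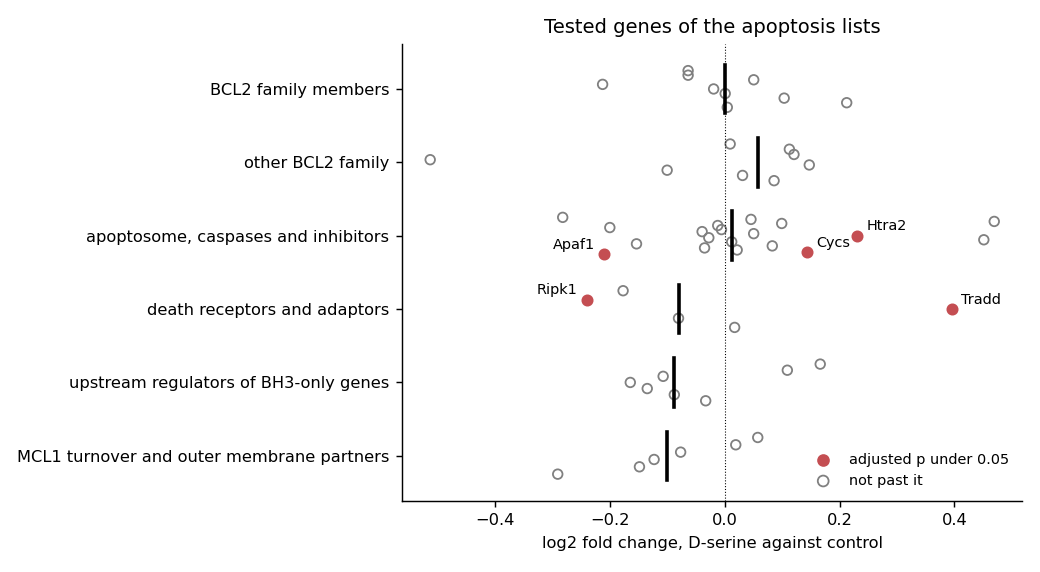
Log2 fold change of D-serine against control (horizontal axis) for each tested gene of 6 lists; filled points passed an adjusted p of 0.05, open points did not, and the vertical bar is the list's median. The filled points are Cycs, Htra2 and Apaf1 among apoptosome and caspase genes and Tradd and Ripk1 among death receptor genes, and no member of the BCL2 lists is filled.

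**Figure D5:**
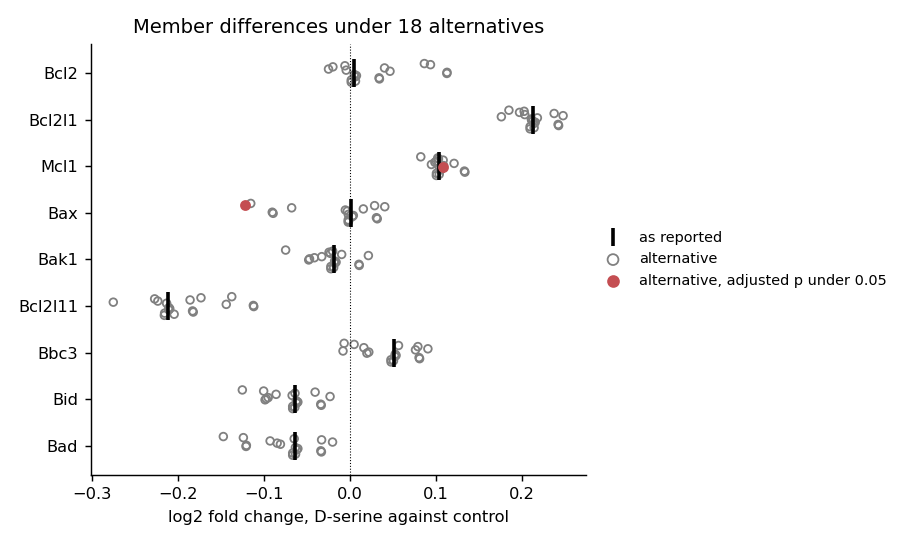
Log2 fold change of each tested member as reported (black bar) and under 18 other settings (open points; filled where the adjusted p is under 0.05). Bcl2l1, Mcl1, Bcl2l11, Bid and Bad keep 1 side of 0 in all settings shown, Bcl2, Bax, Bak1 and Bbc3 do not, and the filled points are 1 setting each of Mcl1 and Bax.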

How the data were processed

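The 6 libraries are poly(A) RNA of Neuro2a cells, 3 per group and made with a stranded TruSeq kit, per the labels' protocols. The values are whole-number counts that the authors deposited, for each gene beside its exonic length, without normalization. HISAT2, featureCounts, Subread, Trim Galore, bcl2fastq and DESeq2 and the builds GRCm38 and mm10 are named in the submitters' processing notes, without versions or settings. The deposited starts equal those of RefSeq GRCm38.p6 in 313 of 23128 matched genes and in 0 of 10 members, so gene coordinates are given as deposited, 1-based, from a build the table does not name.

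Genes were kept by filterByExpr (13366), scaled by TMM and tested with edgeR 4.0.16 (R 4.3.3, quasi-likelihood F test, no covariate, two-sided, Benjamini-Hochberg over all tested genes, threshold 0.05). Standard errors are the log2 fold change divided by the square root of F, and 95% intervals use the fit's degrees of freedom. CPM per kb divides by the exonic length. Alternatives used DESeq2 1.42.0, limma 3.58.1 (voom), other scalings and filters, the replicate number as a block, removal of a length trend (spline, 5 degrees of freedom, centred to keep the TMM scale) and omission of each library. Steps were tested on simulated data. Exon overlaps come from bedtools 2.31.1, on both strands.

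The members and lists were chosen with earlier results of these data known. All members are named, and of each list the genes past the threshold (up to 4); others are marked or serve comparison. The labels do not say whether replicate numbers pair the libraries. The correlations of same-numbered deviations from the group means were -0.0687, 0.0197 and -0.0187. Those of differently numbered libraries ran from -0.0761 to 0.0877. With 3 libraries per group, these values cannot show whether same-numbered libraries were handled together. Some genes of the lists are not reported here.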

Additional observations from a re-analysis of the deposited data

How the results depend on the processing

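No member passed in the 6 fits that each left out 1 library (0 of 9 in each), nor in any other setting except 2: Mcl1 was the 1 member called with the length trend removed, and Bax was the 1 member called with that trend removed and D-serine replicate 1 left out, a setting added after seeing the data. Over all genes, the number past the threshold was 298 with the replicate block, which called 0 members, 2043 with the length trend removed and 2118 with that trend not centred, also added after seeing the data. It ran from 68 (without control replicate 2) to 1699 (without D-serine replicate 1) when 1 library was left out. Without control replicates 1 and 3 and D-serine replicate 3, each alone, it was 125, 453 and 291. The split between higher and lower calls, 647 and 655 as reported, was 914 and 412 under upper quartile scaling and 944 and 412 with library totals.

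Signs near 0 were unstable. Bax had a log2 fold change of -0.0024 with DESeq2 and with its size factors in edgeR, -0.0019 with limma-voom, -0.0022 with the replicate block, -0.090 with the length trend removed, -0.091 with that and the replicate block, -0.12 with the trend removed and D-serine replicate 1 left out, -0.12 with the trend not centred, and -0.068 to 0.040 when 1 library was left out. Bak1 had 0.010 under upper quartile scaling and library totals and -0.042 to 0.021 when 1 library was left out. Bcl2 had -0.025 to 0.046 and Bbc3 -0.0084 to 0.090 when 1 library was left out, and Bbc3 had -0.0071 with the trend not centred. The cause was not tested. Whether same-numbered libraries were handled together is not known, and the reason for the loss of calls under the block was not tested. Tested members had at least 502 counts in a library, whereas the counts of Pmaip1, Bik and Hrk were too low for a comparison.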

Other observations

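Among 9 upstream regulators of BH3-only genes, 7 were tested and 0 passed in edgeR, against 9.74% of all genes (4 had an unadjusted p under 0.05, against 28.2%). DESeq2 called 2 of them, Cdkn1a and Atf4, against 12.3% of all genes, and limma-voom called 0, against 9.43%. In 6 of the 7 the libraries of the groups were without overlap, as they were in 32.9% of all tested genes. Atf4, a factor of the amino acid response, stood at 1024, 1044 and 1057 CPM in control and at 1272, 1104 and 1130 CPM with D-serine (log2 fold change 0.17, SE 0.050, edgeR adjusted p = 0.0527). Its highest value was in D-serine replicate 1, the library that stood apart on gene length. Cdkn1a, the p53 target most used as a readout, stood at 405, 421 and 436 CPM in control and at 393, 375 and 381 CPM with D-serine (log2 fold change -0.13, SE 0.042, edgeR adjusted p = 0.0611). Mdm2, another p53 target, stood at 188, 195 and 193 CPM in control and at 180, 183 and 179 CPM with D-serine (-0.088, SE 0.041, edgeR adjusted p = 0.179). Ddit3, which encodes CHOP, a stress factor reported to act on Bcl2l11 and Bbc3, stood at 257 ± 2.37 in control against 277 ± 13.1 with D-serine (CPM ± SD, n = 3 each, edgeR adjusted p = 0.128). Ddit3 was also highest in D-serine replicate 1, with 291, 265 and 275 CPM in D-serine replicates 1 to 3. Foxo3, a forkhead factor, stood at 75.8, 77.2 and 78.3 CPM in control and at 58.9, 72.8 and 74.7 CPM with D-serine (edgeR adjusted p = 0.167), with its lowest value in D-serine replicate 1, the library that stood apart on gene length.

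Of 6 genes for MCL1 turnover and outer membrane partners, 0 passed in edgeR, DESeq2 or limma-voom (9.74%, 12.3% and 9.43% of all genes did). An unadjusted p under 0.05 was found in 2, 1 and 2 of them, against 28.2%, 25.9% and 28.3% of all genes. Huwe1, a ubiquitin ligase of MCL1, had a control mean of 1007 ± 51.2 CPM (SD, n = 3) and stood at 646, 927 and 896 CPM with D-serine (log2 fold change -0.29, SE 0.099, edgeR adjusted p = 0.0783), again with the lowest value in D-serine replicate 1. Usp9x, which removes ubiquitin from MCL1, stood at 403 ± 18.4 and 370 ± 47.9 CPM (SD, n = 3 each, edgeR adjusted p = 0.303). The genes in both paragraphs were named after their values were seen.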
